A study of Mus musculus with 16 samples.

Results

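Bidirectional protein-coding promoters are stretches of DNA from which 2 neighboring genes are read in opposite directions, away from each other. The accessible sites at these promoters were followed between the non-neuroendocrine (non-NE) and the neuroendocrine (NE) cells of mouse small cell lung cancer (SCLC). A listed peak was a member when its centre lay within 1000 bp of the start sites of 2 different protein-coding genes on opposite strands, with the minus-strand start at the lower coordinate and the start sites at most 1000 bp apart in the basic GENCODE annotation of mm10. By this rule 608 of the 80367 listed peaks were members. The rule itself used positions only, but a peak had to be past the authors' limits on fold change and adjusted p-value to be listed. Of the members, 571 were in the list of peaks more accessible in non-NE cells, called opened below, and 37 were in the list of peaks less accessible in those cells, called closed.

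Accessibility was measured by ATAC-seq, in which the Tn5 transposase cuts and tags open chromatin. Cells were sorted from lung tumors of TKO;Hes1 GFP/+ mice. These carry homozygous floxed alleles of Rb, p53 and p130, all deleted after an adenovirus with Cre under the CMV promoter (Ad-CMV-Cre) is given to the lungs, and 1 Hes1 allele that makes GFP as a reporter of Hes1, a Notch target. Hes1-GFP-positive cells are the non-NE cells and Hes1-GFP-negative cells the NE cells, so both groups carry the same deletions, and the adenovirus does not restrict Cre to 1 lung cell type. The tumors of each mouse were pooled before sorting, and the series' design text gives 4 pairs of populations from 3 mice, with 1 technical replicate. The sample labels show 8 libraries run on 2 lanes each. The files hold the positions of the listed peaks, 1 mean normalized read count per peak over all libraries and the statistics of the authors' own comparison, which were not used, but no values per library. The depth of each library is therefore unknown, no value could be given with an SD or n, and no test over samples could be run. The intervals below are 95% intervals on counts of peaks, pairs or genes, which are not replicates, and they cover counting error only. In sorted bulk populations, a change in the share of cells with an open site and a change in accessibility per cell cannot be told apart.

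The labels were checked at the promoters of defining markers, beside 28.7% of all protein-coding genes with an opened and 8.63% with a closed promoter peak. Of 7 NE markers, 6 (Insm1, Chga, Chgb, Ncam1, Calca and Uchl1) had a closed promoter peak and none an opened one. Hes1, Notch2 and Rest all had an opened promoter peak, as did 3 of 3 club cell markers, 3 of 3 alveolar type 1 (AT1) markers and 1 of 2 alveolar type 2 (AT2) markers. Among the markers of other cell types, 1 of 5 leukocyte markers (Cd68), 1 of 4 endothelial markers (Kdr) and 1 of 4 fibroblast markers (Col1a1) had an opened promoter peak, and Tek of the endothelium had a closed one. These few markers lay near the shares over all genes. By the study's methods, the sort stained for CD45, CD31 and TER-119, which mark leukocytes, endothelium and red blood cells, to exclude those cells, and for CD24 as a positive marker. The part of other cells in the results below was not tested.

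As background, many mammalian genes lie head to head with a neighbor and share 1 short promoter, which usually sits in a CpG island, lacks a TATA box and is active in most tissues. Genes of DNA repair, mitochondria, protein folding and other general functions are often arranged in this way. Factors of the ETS, NRF1, NFY, SP and YY1 families commonly bind such promoters. ATAC-seq shows whether the shared DNA is open, not which of the genes is transcribed.

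The stretch between both start sites is the DNA that the 2 genes of a pair share. It is shown for the opened and the closed pairs with the most reads whose start sites lie at most 300 bp apart, in lower case, 5′ to 3′ on the plus strand of mm10, with capitals for matches on either strand to any of the 12 short motif cores listed further below. The 3 opened stretches lie at chr14:67715841-67715937, chr5:137629002-137629121 and chr8:26119224-26119368.
Cdca2/Kctd9: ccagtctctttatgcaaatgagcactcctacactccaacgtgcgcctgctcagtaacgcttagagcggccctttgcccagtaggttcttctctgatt
Fbxo24/Lrch4: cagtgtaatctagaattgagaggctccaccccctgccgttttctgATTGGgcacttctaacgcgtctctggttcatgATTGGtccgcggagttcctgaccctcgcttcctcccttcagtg
Hook3/Rnf170: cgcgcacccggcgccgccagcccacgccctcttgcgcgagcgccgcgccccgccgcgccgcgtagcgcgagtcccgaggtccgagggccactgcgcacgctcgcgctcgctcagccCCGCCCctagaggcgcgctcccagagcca

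The 3 closed stretches lie at chr2:178414472-178414524, chrX:136993032-136993155 and chr7:6730421-6730583.
Ppp1r3d/Fam217b: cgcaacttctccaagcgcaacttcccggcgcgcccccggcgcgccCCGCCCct
Slc25a53/Zcchc18: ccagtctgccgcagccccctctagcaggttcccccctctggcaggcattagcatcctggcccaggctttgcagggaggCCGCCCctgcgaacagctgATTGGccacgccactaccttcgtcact
Peg3/Usp29: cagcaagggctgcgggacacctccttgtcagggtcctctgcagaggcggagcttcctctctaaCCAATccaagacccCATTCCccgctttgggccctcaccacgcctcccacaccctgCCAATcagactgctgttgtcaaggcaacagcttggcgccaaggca

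The capitals mark NFY boxes (CCAAT or its reverse, ATTGG) in Fbxo24/Lrch4 and Peg3/Usp29, with 2 in each, and in Slc25a53/Zcchc18, with 1. An SP box (GGGCGG or its reverse) is marked in Hook3/Rnf170, Ppp1r3d/Fam217b and Slc25a53/Zcchc18, and a TEAD core (CATTCC) in Peg3/Usp29. No core matched between the start sites of Cdca2 and Kctd9. The opened stretches hold 4, 6 and 28 CpG dinucleotides in 97, 120 and 145 bases, in the order shown, and the closed ones 9, 5 and 5 in 53, 124 and 163 bases. These ranges overlap.

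The first comparison asked how often an accessible site at a bidirectional promoter was opened rather than closed in non-NE cells. Of the 608 members, 93.9% were opened (interval 91.7 to 95.6%), against 50.8% of all listed peaks and 74.3% of all listed protein-coding promoter peaks. Promoter peaks of protein-coding genes with no divergent partner, called single promoters below, were opened in 6645 of 9154 cases (72.6%, 71.7 to 73.5%). The difference between members and single promoters was 21.3 percentage points (19.0 to 23.2). Where the divergent partner was a long non-coding RNA (lncRNA) gene instead of a protein-coding one, 478 of 596 peaks were opened (80.2%, 76.8 to 83.2%), which was 13.7 points below the members (10 to 17.5). Promoters of lncRNA genes alone were opened in 56.1% of cases and all remaining peaks in 47.1%.

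The opened members also had more reads than the closed ones. Their mean normalized read count, the authors' mean over all libraries, ranged from 6.51 to 1810 with a median of 255 and quartiles of 112 and 445. Closed members ranged from 11.6 to 229 with a median of 37.0 and quartiles of 22.8 and 68.9. The read ranges overlap, but 172 members had over 400 reads and all 172 were opened. Single promoters had medians of 156 when opened and 40.5 when closed, so the gap between the lists was wider among the members. Peaks with a divergent lncRNA partner had medians of 227 and 45.2, nearer to those of the members.

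Because read count and direction moved together, the opened share was set out by read count. Among peaks with 20 to 50 reads, 54 of 66 members (81.8%, 70.9 to 89.3%) and 54.0% of single promoters were opened, a difference of 27.9 points (16.7 to 35.6). From 50 to 100 reads the shares were 86.5% and 64.9%, and from 100 to 200 reads 94.5% and 80.4%. Between 200 and 400 reads 165 of 166 members were opened against 91.9% of single promoters, and over 400 reads 100% against 96.2%. Under 20 reads there were only 20 members, 12 of them opened, and the difference of 14.0 points had an interval that includes 0 (-7.52 to 32.4). Members were thus above single promoters in each of the 6 ranges, by an amount that shrank toward the highest counts, and the interval excluded 0 in 5 of them.

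**Figure D1:**
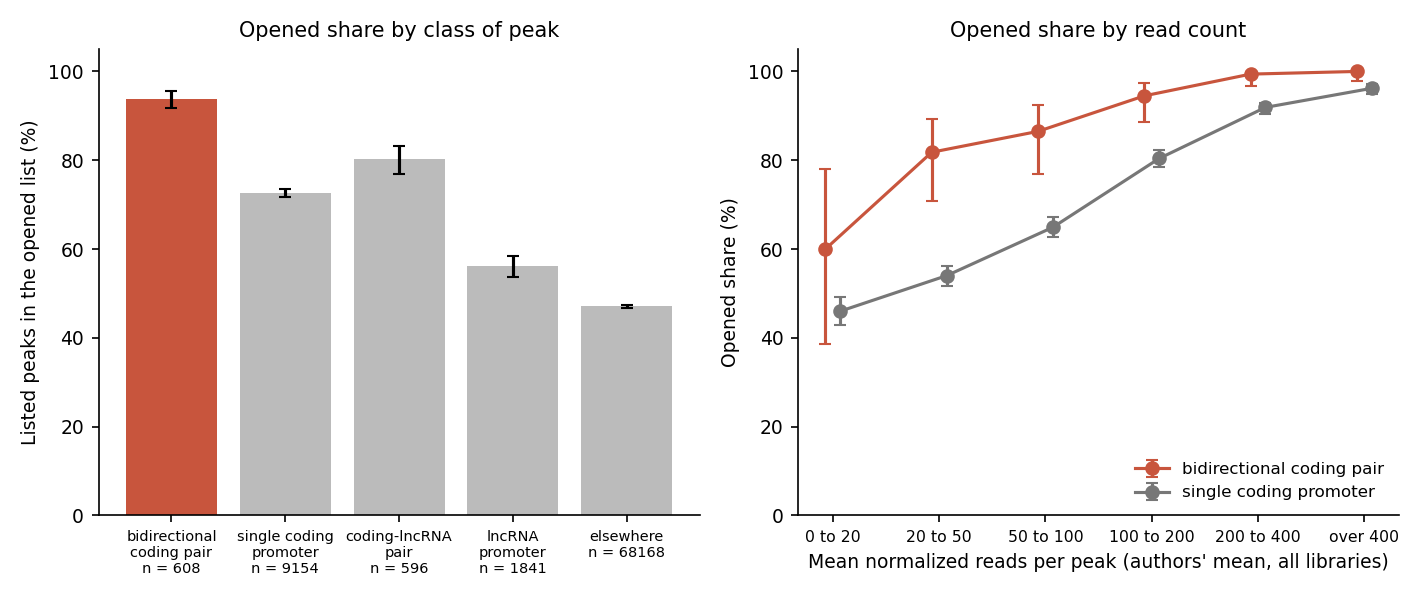
Left, share of listed peaks in the opened list (%) for 5 classes of peak, with 95% Wilson intervals and the number of peaks. Right, the same share in 6 ranges of mean normalized reads for bidirectional members (red) and single protein-coding promoters (gray). Members stand at 93.9% against 72.6% for single promoters, and rise from 60.0% under 20 reads to 100% over 400 reads.

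Several peaks can lie at 1 promoter, so the pairs were also counted once each. The annotation holds 1009 divergent protein-coding pairs made of 1978 genes, which is 9.01% of the 21951 protein-coding genes. A listed peak lay at 484 pairs. Of these, 451 had opened peaks only (93.2%, 90.6 to 95.1%), 31 had closed peaks only (6.40%) and 2 had both. The other 525 pairs had no listed peak, which says only that no peak there passed the limits, whether the promoter was open in both cell types or in neither. Most listed pairs had 1 peak (361), and 107 had 2, 13 had 3 and 3 had 4. Some genes and peaks were shared, with 40 genes in more than 1 pair and 18 member peaks at more than 1 pair.

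Counted by gene, bidirectional promoters were opened more often and closed less often than the others. An opened promoter peak was found for 927 of the 1978 genes in pairs (46.9%) and for 5365 of the 19973 other genes (26.9%), a difference of 20 points (17.7 to 22.3), with 28.7% over all protein-coding genes. A closed promoter peak was found for 89 genes in pairs (4.50%) and 1806 other genes (9.04%), a difference of -4.54 points (-5.47 to -3.46), with 8.63% over all. These counts include peaks at other start sites of the same genes. A member peak counts for both genes of its pair, and the intervals, which treat each gene as separate, take no account of this. At the pair's own promoter, 890 genes had an opened and 66 a closed member peak.

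The distance between the start sites showed no order. For start sites at most 100 bp apart, 92.4% of the listed pairs were opened only (87.6 to 95.4%). The share was 93.3% above that and up to 200 bp, 96.9% up to 400 bp and 89.7% up to 1000 bp, with overlapping intervals. The median distance was 131 bp in opened pairs, 134 bp in closed pairs and 134 bp in pairs with no listed peak. At the limit of the rule, the widest listed pair inside it was Asphd1/Sez6l2 (981 bp, closed, 28.5 reads), and the nearest outside were Sgsm2/Tsr1 (1018 bp, opened, 84.6 reads) and Wrap53/Trp53 (1035 bp, opened, 272 reads). For the distance of the peak centre, the outermost members were at P3h4/Fkbp10 (1000 bp from the farther start, opened, 304 reads) and Cenpx/Lrrc45 (996 bp, opened, 33.3 reads), and the first peaks outside were at Sult2b1/Lmtk3 (1004 bp, closed, 15.1 reads) and Mageb3/Ctdspl2 (1006 bp, opened, 18.9 reads).

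Opened and closed members lay in different places. An opened member usually sat on the shared promoter itself, and a closed member usually sat beside it, inside 1 of the genes. Taking for each member the pair of start sites that lie closest together, 345 of the opened members covered both start sites (60.4%) and 133 covered neither (23.3%). Of the closed members, 7 covered both (18.9%) and 25 covered neither (67.6%), so the share covering both differed by 41.5 points (25.7 to 51.7). The peak centre lay a median of 146 bp from the midpoint of the start sites in opened members and 556 bp in closed members, and it was within 250 bp of it in 63.9% and 29.7%. Opened members were also wider, with a median of 598 bp against 197 bp. The same order held for single promoters (473 bp against 256 bp) and for peaks with a divergent lncRNA partner (556 bp against 280 bp).

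Read the other way, 345 of the 352 members that covered both start sites were opened (98.0%, 96.0 to 99.0%), as were 93 of 98 that covered 1 (94.9%) and 133 of 158 that covered neither (84.2%, 77.7 to 89.0%). Their median read counts fell in the same order, 369, 157 and 55.9 reads. Single promoters also differed by position. With a start site of any protein-coding gene inside the peak, 97.3% of members and 81.6% of single promoters were opened, a difference of 15.7 points (13.6 to 17.2). Without one, 80.3% of members and 59.0% of single promoters were opened, a difference of 21.3 points (13.2 to 27.6).

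**Figure D2:**
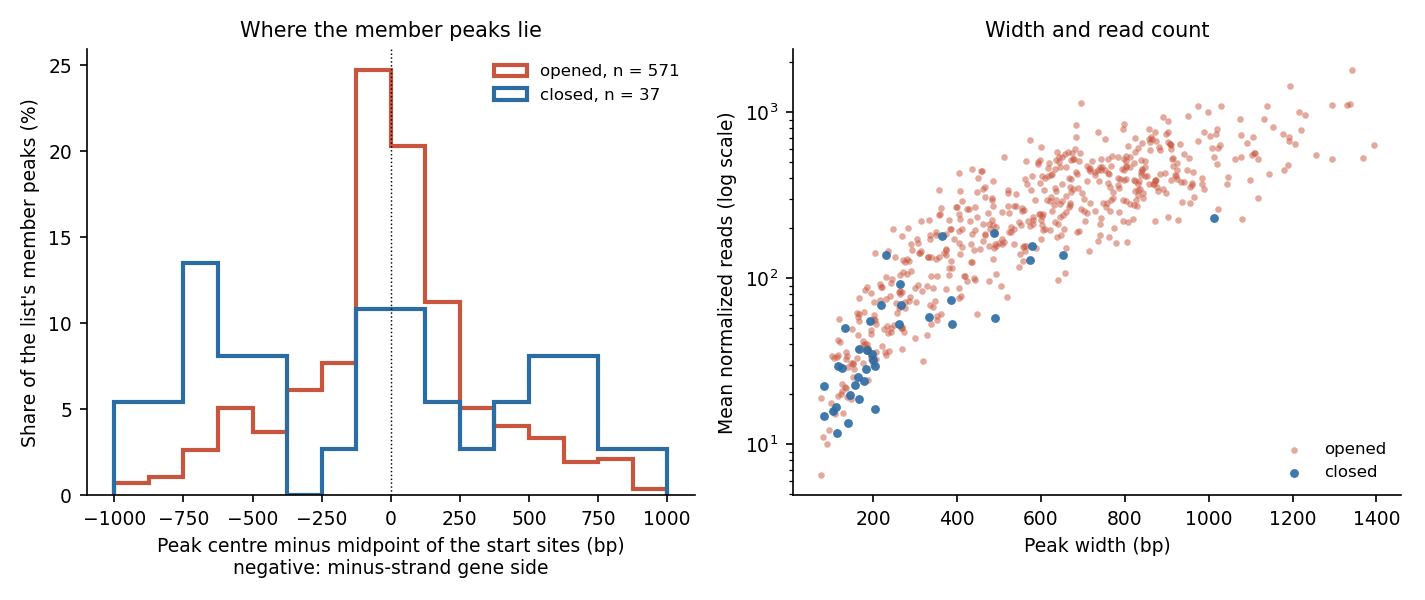
Left, distance of the peak centre from the midpoint of the start sites (bp), as a share of the 571 opened (red) and the 37 closed (blue) members in equal steps. Right, peak width (bp) against mean normalized reads (log scale), 1 point per member. Opened members gather at the midpoint (median distance 146 bp), closed members gather on both flanks (median 556 bp) and are narrower (median 197 bp against 598 bp) with fewer reads.

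The opened member with the most reads covered both starts of Cdca2, which encodes a mitotic chromatin partner of protein phosphatase 1, and Kctd9 (1808 reads, chr14:67715269-67716610). Next were Mms19/Ubtd1 (1441 reads), whose Mms19 delivers iron-sulfur clusters to DNA repair and replication enzymes, Mob3a/Izumo4 (1143 reads), Fbxo24/Lrch4 (1116 reads) and L3hypdh/Jkamp (1106 reads). Hook3/Rnf170 followed with 1103 reads, where Hook3 links cargo to dynein on microtubules and Rnf170 is a ubiquitin ligase of the endoplasmic reticulum. Lrrc42/Hspb11 had 1093 reads and Aldh6a1/Lin52 had 1090 reads, of which Hspb11 is an intraflagellar transport protein, Aldh6a1 a mitochondrial enzyme of valine breakdown and Lin52 a subunit of the MuvB complex of cell cycle genes. Setd3/Ccnk (1084 reads) pairs an actin histidine methyltransferase with cyclin K, and Derl2/Mis12 (1003 reads) pairs a factor of protein degradation at the endoplasmic reticulum with a kinetochore protein. All 10 of these peaks covered both start sites, except that at Mob3a/Izumo4, which covered the start of Mob3a and ended before that of Izumo4. Each of the 10 had more reads than any closed member.

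The closed members with the most reads were at 8 pairs. Ppp1r3d, a glycogen-targeting subunit of protein phosphatase 1, and Fam217b shared the strongest one (229.4 reads, chr2:178414233-178415245), which covered both starts. Slc25a53/Zcchc18 on chromosome X had 186.2 reads and also covered both starts. Peg3/Usp29, an imprinted pair in which Peg3 encodes a zinc finger protein, had 2 closed peaks, 1 over both starts (180.5 reads, chr7:6730239-6730602) and 1 in an intron of Peg3 (138.6 reads, chr7:6729477-6729707). Ddx25, an RNA helicase of the germ line, and Pus3, a pseudouridine synthase, shared a peak of 157.1 reads over the start of Ddx25. Obsl1/Inha had 138.4 reads, where Obsl1 is a cytoskeletal adaptor and Inha the alpha subunit of inhibin. Slc16a6/Arsg, which pairs a transporter of the monocarboxylate family with a lysosomal sulfatase, had 2 closed peaks of 129.3 and 73.84 reads, the lower over both starts and the higher in an intron of Arsg. Lrrc34/Lrriq4 had 92.44 reads and Usp35/Kctd21 68.95 reads.

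The 7 closed members over both starts were, beside Ppp1r3d/Fam217b, Slc25a53/Zcchc18, Peg3/Usp29, Slc16a6/Arsg and Lrrc34/Lrriq4, those at Sobp/9030612E09Rik (57.75 reads) and Gm9857/Henmt1 (52.92 reads).

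Both directions were found at 2 pairs. At Pigp/Ttc3, where Pigp belongs to the enzyme complex that starts GPI anchor synthesis, an opened peak of 260.0 reads covered both starts (chr16:94370174-94371195), a second opened peak of 97.38 reads lay 734.5 bp to the Ttc3 side of the midpoint, and a closed peak of 58.55 reads lay in an intron of Pigp, 813.0 bp to the other side. At Dclre1a/Nhlrc2, where Dclre1a is a nuclease of DNA crosslink repair, the opened peak (261.0 reads) lay on the Nhlrc2 side and the closed one (34.77 reads) in an untranslated part of an exon of Dclre1a. In both pairs the closed peak covered no start site.

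Of the divergent pairs known from textbooks, 16 are given here, and the direction of the others does not enter these counts. The rule was met by 11 of the 16, and 5 of these were opened and 6 not listed, near the 44.7% opened only and 52.0% not listed over all pairs. Brca1/Nbr1, whose Brca1 acts in homologous recombination, had an opened peak over both starts (280.9 reads, chr11:101551796-101552440) and a second one on the Nbr1 side (490.6 reads). Col4a4/Col4a3, which encode chains of basement membrane collagen, had 1 opened peak over both starts (223.2 reads). Psmb9/Tap1, a subunit of the immunoproteasome and a peptide transporter of antigen presentation, had an opened peak of 444.6 reads over both starts and a weaker one of 30.61 reads in Psmb9. Sirt3/Psmd13 (133.5 reads) and Mrps12/Sars2 (395.1 reads) were opened over both starts. Atm/Npat, Hspd1/Hspe1, Psmb1/Tbp, Mcm4/Prkdc, Pdcd10/Serpini1 and Fen1/Tmem258 had no listed peak. Col4a1/Col4a2, Col4a5/Col4a6, Ppat/Paics, Surf1/Surf2 and Trp53/Wrap53 were no pairs by the rule.

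The lists of general cell functions were described by their paired genes. All but that of DNA replication and repair were drawn up by the start of the gene symbol, so they also take in related genes such as assembly factors. Against 9.01% of all protein-coding genes, those in pairs were 32.4% for DNA replication and repair, 32.1% for the mitochondrial ribosome, 29.7% for histones, 28.4% for chaperones, 27.5% for the respiratory chain, 24.3% for tRNA synthetases, 20% for the proteasome and 6.45% for zinc finger genes. Since 93.2% of all listed pairs were opened only, a list with no closed gene among its few listed ones lay near that share. Of all 1978 genes in pairs, 45.0% had an opened and 3.34% a closed member peak. Among 34 paired genes of DNA replication and repair, 11 were opened (32.4%) and 0 closed. Examples were Chek2, the checkpoint kinase, at Hscb/Chek2 (658.2 reads), Pole, the catalytic subunit of DNA polymerase epsilon, at Pxmp2/Pole (543.7 reads), and Xpc, a damage sensor of nucleotide excision repair, at Xpc/Lsm3 (447.8 reads). Mcm7, a subunit of the replicative helicase, had 2 opened peaks at Mcm7/Ap4m1 (508.7 and 267.0 reads). The share of this list was below that of all paired genes.

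Mitochondrial ribosome genes were opened in 13 of 25 paired cases (52.0%) and closed in 0, for instance at Mrpl43/Twnk (372.4 reads), which also holds the mitochondrial helicase gene Twnk. For the respiratory chain, 10 of 30 paired genes were opened (33.3%), such as Uqcr10 of complex III and Sdhd of complex II (269.2 reads at Sdhd/Timm8b), and 2 were closed. The closed peaks lay in an exon of the assembly factor gene Ndufaf7 (29.54 reads) and in an intron of Sdha, the catalytic subunit of complex II (16.82 reads), over no start site. Proteasome genes were opened in 4 of 10 cases and genes with chaperone symbols in 12 of 27 (44.4%), both with 0 closed. The 12 include Hspb11, which is no chaperone by its role above, and the chaperonin subunit gene Cct7 had 967.6 reads at Pradc1/Cct7. Genes with zinc finger symbols were opened in 12 of 30 cases (40.0%), with 0 closed, and the 12 include Zbtb8os, which encodes archease and no zinc finger protein.

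Of 9 paired tRNA synthetase genes 4 were opened, and 2 had a closed member peak, at Hars/Hars2. It lay in an intron of Hars over neither start site (68.86 reads), beside the promoter from which the cytosolic and mitochondrial histidyl-tRNA synthetases start 26 bp apart. Histone genes, which are often paired within their clusters, had a lower share, with 5 of 27 opened (18.5%) and 2 closed at Hist1h2an/Hist1h2bp (36.95 reads). Reads can be split among near-identical histone copies, so these values are uncertain.

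Of the 57 genes of the NE and neuronal list, 1 (Serpini1, encoding neuroserpin) was in a divergent pair, against 9.01% of all protein-coding genes, and it had no listed peak. Across all their promoters, 40 of the 57 genes (70.2%) had a closed promoter peak and 2 an opened one, against 8.63% and 28.7% of all protein-coding genes. Of 39 Notch pathway genes 16 (41.0%) had an opened and 4 (10.3%) a closed promoter peak. Among them 4 were paired and 3 of these opened, against 45.0% of all paired genes. These were Pofut1, which adds O-fucose to Notch (Plagl2/Pofut1, 413.6 reads), Psenen, a gamma-secretase subunit (Psenen/U2af1l4, 134.9 reads), and Rfng, a glycosyltransferase that modifies Notch (Rfng/Gps1, 282.0 reads). Each peak covered both starts. Ncstn, another gamma-secretase subunit, was paired and not listed. No gene of the Hippo list was in a pair, and 14 of its 23 annotated genes had an opened promoter peak (60.9%, against the same 28.7%). Of 29 lung epithelial markers, 21 (72.4%) had an opened and 3 (10.3%) a closed promoter peak, and only Abca3, the lipid transporter of AT2 cells, was paired. Abca17/Abca3 had 2 opened peaks, 1 over the start of Abca3 (396.0 reads) and 1 over that of Abca17 (37.98 reads). Among the other cell types, Pecam1 of the endothelium was paired and not listed, and no marker of leukocytes or fibroblasts was in a pair.

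The DNA under the members differed between the lists. In the central 200 bp of each peak, the ratio of observed to expected CpG dinucleotides, which is high in CpG islands and low elsewhere in the genome, had a median of 0.863 in opened members (quartiles 0.678 and 1.00) and 0.463 in closed ones (0.377 and 0.584). Single promoters had medians of 0.746 when opened and 0.544 when closed. Opened peaks with a divergent lncRNA partner had a median of 0.876, so the high ratio was not particular to the members. The GC content had medians of 64.5% and 60.0% in opened and closed members, and of 67.0% in opened peaks with a lncRNA partner. The opened share was also set out by CpG content, with read count and position left free. Members were above single promoters in each range. Whether CpG content sets the difference was not tested. Above a ratio of 0.6 the opened share of members was 97.1% (0.6 to 0.8), 98.0% (0.8 to 1) and 99.3% (over 1), against 73.3%, 79.6% and 87.7% of single promoters. From 0.4 to 0.6 the shares were 77.8% and 66.1%, a difference of 11.7 points (0.574 to 20.1). Below 0.4, 38 of 50 members (76.0%, 62.6 to 85.7%) and 61.3% of single promoters were opened, a difference of 14.7 points (1.19 to 24.7).

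**Figure D3:**
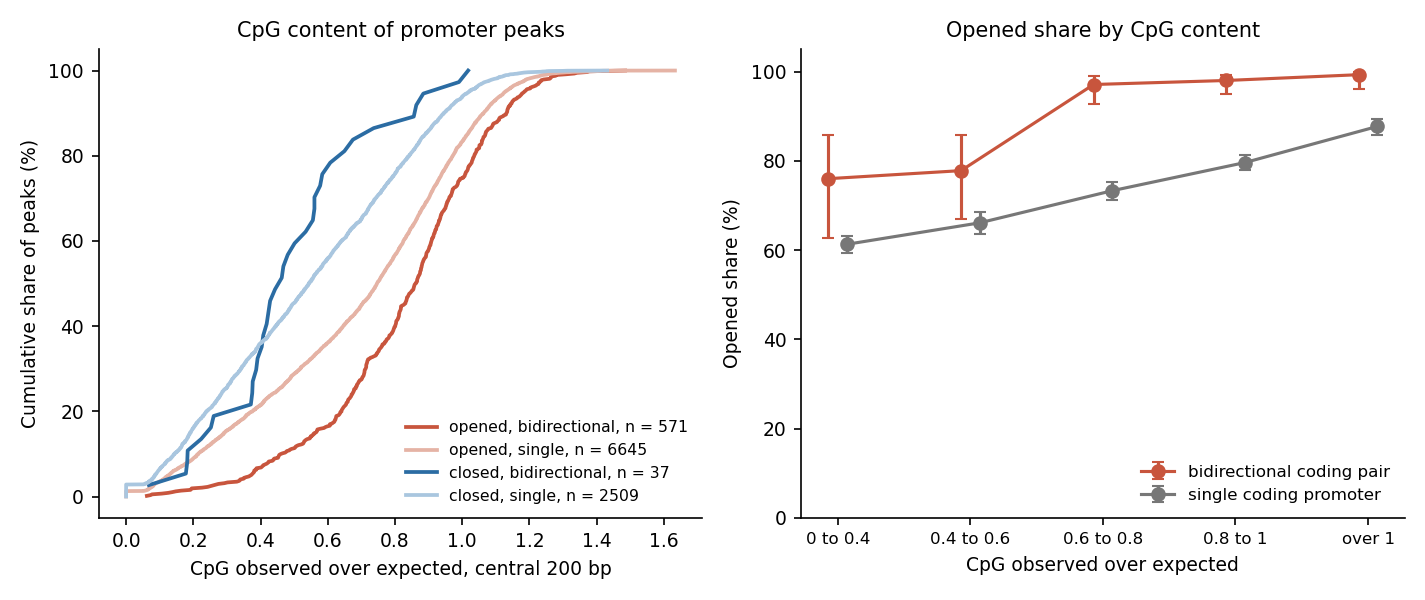
Left, cumulative share of promoter peaks (%) against the ratio of observed to expected CpG in the central 200 bp, for opened and closed bidirectional and single promoters. Right, opened share (%) in 5 ranges of that ratio with 95% Wilson intervals. The curve of the closed members (median 0.463) lies farthest left over most of its height and that of the opened members (median 0.863) farthest right, and members were above single promoters in each range.

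Short cores, 12 in all, were searched by exact match on both strands in the same 200 bp: ETS (CCGGAAG), NRF1 (GCGCATGC or GCATGCGC), NFY (CCAAT), SP/KLF (GGGCGG), YY1 (AAGATGGC), CRE (TGACGTCA), the Myc E-box (CACGTG), AP-1 (TGACTCA or TGAGTCA), TEAD (CATTCC), FOX (TGTTTAC), RBPJ (TGGGAA) and the TATA box (TATAAA). A match describes the letters of the window and not binding. The ETS core was in 101 of 571 opened members (17.7%, 14.8 to 21.0%) and in 8.37% of opened single promoters, a difference of 9.32 points (6.33 to 12.7). Only 1 of 37 closed members held it (2.70%). Closed single promoters held it in 2.31% of cases, so a lower share in the closed list was not particular to the members. NRF1, YY1 and CRE cores were also more frequent in opened members than in opened single promoters, at 4.20% against 2.12%, 4.20% against 2.48% and 2.98% against 1.58%, with intervals of the difference above 0. For NFY, SP/KLF and Myc cores the interval of this difference included 0, and SP/KLF was the most frequent core. It was in 57.4% of opened and 29.7% of closed members, a difference of 27.7 points (11.1 to 40.6). Single promoters showed the same order, with SP/KLF in 53.8% when opened and 34.5% when closed.

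The closed members held another core more often. AP-1 was in 6 of 37 (16.2%, 7.65 to 31.1%) and in 8 of 571 opened members (1.40%), a difference of -14.8 points for opened minus closed (-29.8 to -6.15). The peaks with AP-1 lay at Dclre1a/Nhlrc2, Dhrs1/Nop9, Hars/Hars2, Hist1h2an/Hist1h2bp, Sdha/Ccdc127 and Skp2/Lmbrd2, and none of the 6 covered a start site of its pair. Closed single promoters held AP-1 in 9.45% of cases, also above opened single promoters (3.40%). TEAD, FOX, RBPJ and TATA cores did not separate opened from closed members beyond their intervals, which were wide with 37 closed peaks.

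**Figure D4:**
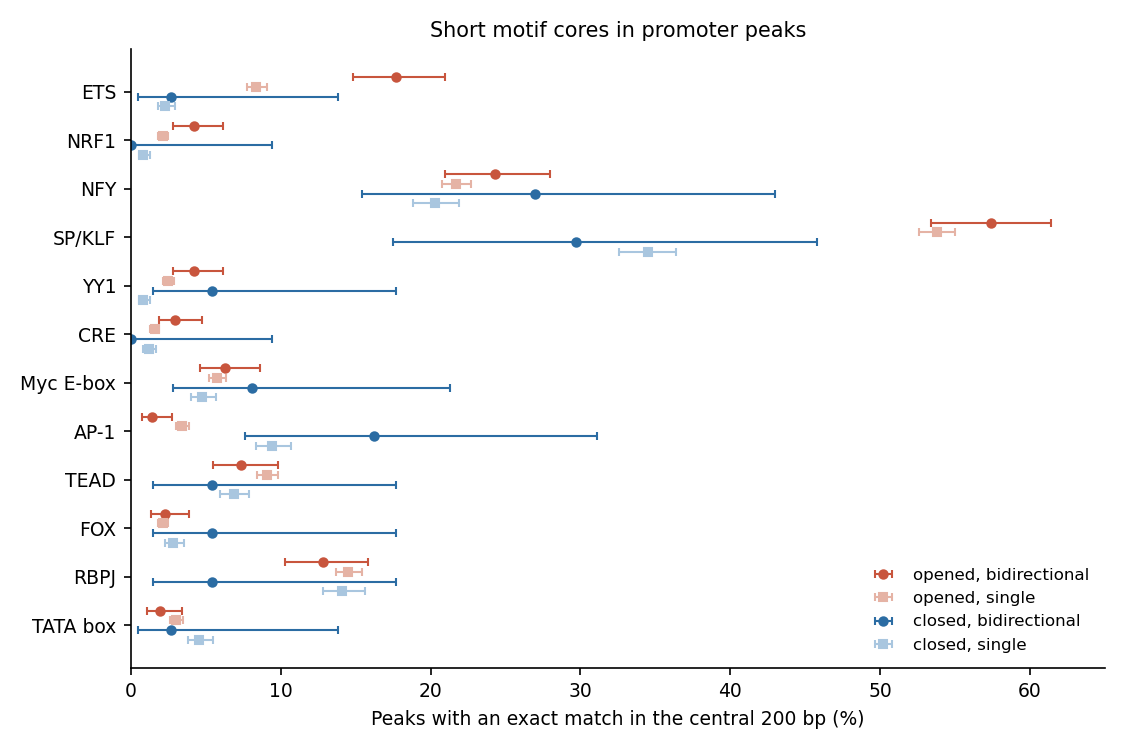
Share of promoter peaks (%) with an exact match to each of 12 motif cores in the central 200 bp, with 95% Wilson intervals, for opened (red circles) and closed (blue circles) bidirectional members and opened and closed single promoters (pale squares). The ETS core is highest in opened members (17.7%), and AP-1 is highest in closed members (16.2%).

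The contrasts changed when the search was moved from the peak to the promoter, that is to the stretch between the start sites widened by 100 bp on each side. There the median CpG ratio was 0.807 at closed members (interval 0.596 to 0.907) and 0.874 at opened members, and the median GC content was 63.4% and 62.2%, the order opposite to that in the peaks. The SP/KLF core was in 70.3% of the closed and 75.3% of the opened. The ETS core was in 16.2% of the closed (7.65 to 31.1%) and 31.0% of the opened. AP-1 turned around, with 0 of 37 closed members, which allows up to 9.41% by the same interval, and 2.45% of the opened. NRF1 also did, with 13.5% of the closed (5.91 to 28.0%) and 9.11% of the opened, against 0% and 4.20% in the peaks. NFY, at 27.0% of closed and 24.3% of opened members in the peaks, turned to 29.7% (17.5 to 45.8%) and 45.2% (41.1 to 49.3%). In the whole peak AP-1 was in 21.6% of closed and 3.85% of opened members.

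Members were spread over 19 autosomes and chromosome X, and their opened share was above that of single promoters on 18 of 20 chromosomes. Chromosome 11 held the most, with 97 of 99 members opened (98.0%), and 77.8% of its 90 pairs had opened peaks only. Of all listed peaks on chromosome 11, 71.1% were opened, against 50.8% over all chromosomes. Single promoters were opened in 92.0% of cases on this chromosome too, so that the difference there was 5.98 points (0.715 to 8.30). Without chromosome 11 it was 23.0 points (20.3 to 25.2), from 93.1% and 70.1%. Chromosomes 4, 6 and 8 had no closed member. The most closed members were on chromosome 7, with 8 of 50. The exceptions were chromosome 13, with 5 of 8 members opened against 64.3% of single promoters, and chromosome 18, with 3 of 6 against 57.1%.

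**Figure D5:**
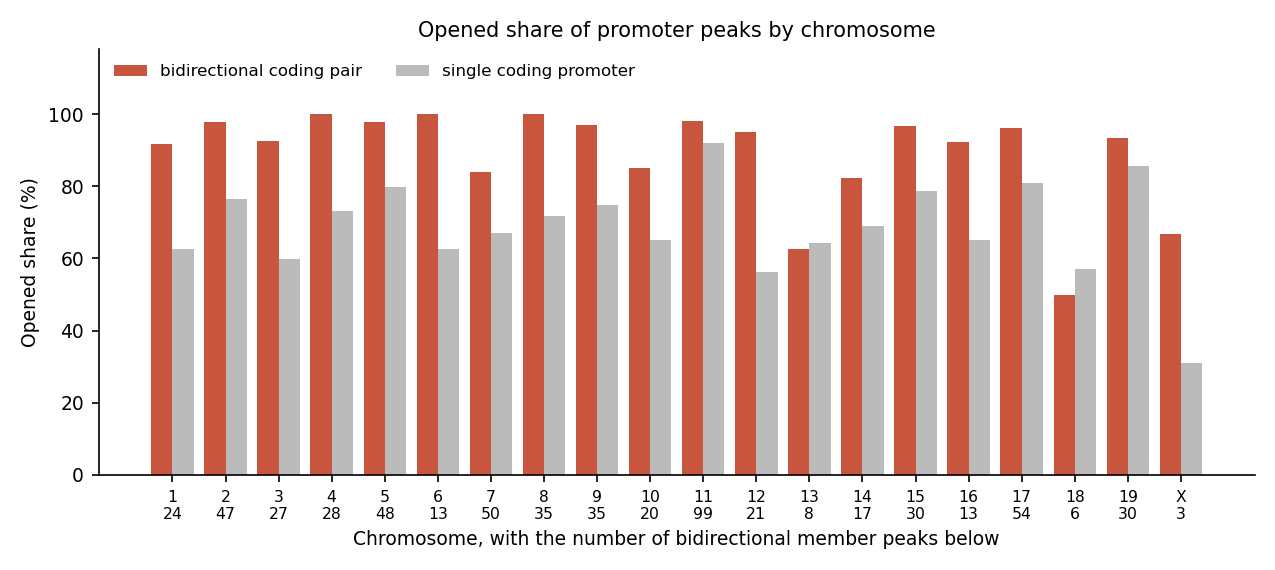
Opened share (%) of bidirectional members (red) and single protein-coding promoters (gray) on each chromosome, with the number of members under the chromosome's name. Members are higher on 18 of 20 chromosomes, chromosomes 13 and 18 being the exceptions with 8 and 6 members.

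The surroundings of the promoters were read from listed peaks away from promoters within 100 kb on either side. Around opened members 73.3% of such peaks were opened, close to the 72.8% around opened single promoters. Around closed members 47.5% were opened (133 of 280 counted), against 29.6% around closed single promoters and 47.1% of all listed peaks away from promoters. More opened than closed neighbors were found at 432 of 571 opened members (75.7%) and at 16 of 37 closed ones (43.2%). Windows of nearby promoters overlap and share peaks, so these shares carry no interval.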

How the data were processed

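ATAC-seq peaks of Hes1-GFP-positive (non-NE) and Hes1-GFP-negative (NE) SCLC cells were analysed as deposited. According to the methods and the submitters' processing notes, reads were trimmed, aligned to mm10 with Bowtie2 2.3.4.1 and freed of duplicates, narrow peaks were called with MACS2 and merged over all samples, and reads per merged peak were compared between the groups with DESeq2 1.28.1. The deposited signal of a peak is the authors' mean over all libraries of read counts divided by size factors. The deposited lists also hold columns of the authors' comparison (log2 fold change, its standard error, statistic, p-value and adjusted p-value), which were not used. Peaks that did not pass the authors' limits were not analysed here, and library depths are unknown.

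Peak positions are 1-based. Genes were those of the basic GENCODE set, and sequence was read from the RefSeq GRCm38.p6 assembly, which mm10 shares. All 80367 peaks lay within its chromosomes. A member at several pairs was described by 1 of them. Shares have 95% Wilson intervals and differences Newcombe intervals. No p-value was computed. Python 3.11.15, numpy 2.4.6, pandas 2.3.3, scipy 1.17.1 and matplotlib 3.10.9 were used. The rule and the intervals were tested on simulated data.

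The members and gene lists were chosen with earlier results of these data known. Pairs were named by this rule: the 10 opened and 10 closed members with the highest read count, pairs with both directions, textbook pairs, and pairs with a gene of the NE, Notch, Hippo or lung epithelial lists. Some genes, pairs and 1 motif core of these lists are not reported here and were left out of the counts of lists. Examples of other lists were named after their values were seen. Stretches were printed for the 3 opened and 3 closed pairs with the most reads among those at most 300 bp apart and not on chromosome 18. The alternatives changed the 2 distances of the rule, the start sites, the merging of peaks, the read count, the chromosomes and the sequence window. Leaving out genes known only by a clone or predicted name was added after seeing the data.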

Additional observations from a re-analysis of the deposited data

How the results depend on the processing

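No difference in opened or closed share between members and other promoters or genes changed sign under the alternative settings. Of 120 shares, counts and medians, 90 stayed within their interval or within 1.5 times the count. With the peak centre within 500 bp of each start site, 98.1% of members and 98.0% of listed pairs were opened, 8 members were closed, the genes in pairs with an opened or closed promoter peak were 44.2% and 2.07%, and the median reads were 324 (opened) and 83.1 (closed). With the peak over both start sites, these values were 98.0%, 98.1%, 7, 42.4%, 1.31%, 370 and 92.4, with 348 opened members (3 cover a wider-spaced combination of their pair's start sites and not the closest one) and differences of 16.2 points from single and 9.64 points from coding-lncRNA promoters. With over 50 reads, 96.7% of members and 96.7% of pairs were opened, 17 members were closed, the differences were 14.0 and 8.71 points, 2.02% of paired genes were closed (-2.82 points from other genes) and the medians were 292 and 73.8. With the outermost start site of each gene, 24 members were closed and 2.83% of paired genes. Merging peaks within 100 bp gave an opened median of 323 reads, and without chromosome 11 the paired genes opened were 43.6%. These settings keep fewer or other peaks by construction, and further causes were not tested. Of 56 sequence values 34 moved with the window, and the order of opened and closed members turned for GC content, AP-1, CRE, FOX, NFY, NRF1, TEAD and YY1 in the widened stretch between the start sites, and for the Myc E-box, NFY, the TATA box and YY1 in the whole peak. No paired analysis was possible because the lists hold no values per library, and for the same reason no replicate could be left out. All shares refer to peaks that passed the authors' limits, library depth is unknown, and with 37 closed members their shares are imprecise.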
